A study of Mus musculus with 24 samples.

Results

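Kupffer cells are the macrophages that live in the sinusoids of the liver, and the expression of 10 genes that mark them was followed across mouse hepatocyte and cholangiocyte organoids. The genes were chosen by symbol, and each symbol was found once in all 3 deposited tables, so that 10 of the 37818 distinct symbols in the tables are described. They are Lyz2, C1qa, C1qb, C1qc, Cd68, Clec4f, Marco, Timd4, Adgre1 and Csf1r. Their difference between the morphological libraries and the bulk libraries was known when they were chosen, so that difference is given as a description without a test.

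The data comprise 24 libraries of wild-type BALB/c mouse liver, from male mice of 6 to 8 weeks according to the methods. Hepatocytes were taken by Percoll density and by removal of EpCAM+ cells with beads, and were sequenced as primary hepatocytes (Pri-Hep, n = 3) or grown in Matrigel as hepatocyte organoids (Hep-Orgs) in a hepatocyte medium with DAPT, a Notch pathway inhibitor, and dexamethasone, at passage 1 (P1), P5 and P10 (n = 3 each). Cholangiocyte organoids (Cho-Orgs) were grown from EpCAM+ liver cells in their own medium and sequenced at P0, P5 and P10 (n = 3 each). The methods describe Hep-Orgs of grape-like, of intermediate and of round-like shape as picked in the first passage (P0) in hepatocyte medium and sequenced by Smart-Seq, a full-length amplification method, with 1 library each. The hepatocyte isolation kept the pellet of a slow spin and left the lighter cells in the supernatant, and the cells for Cho-Orgs were held on EpCAM beads and washed, whereas a depletion by a macrophage antigen is not described. In these samples of many cells, fewer cells of a type and less RNA per cell cannot be told apart. The figure legends tie each replicate number to a mouse, and the methods describe each replicate as a culture of its own. The shape, the passage, the medium and the library method differ together between the Smart-Seq and the bulk libraries, and their parts in the difference cannot be told apart.

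The hepatocyte table held 14068906 to 27160365 fragments per library, recovered from its values. For Cho-Orgs the estimate was 37470000 to 39930000 fragments, and for the Smart-Seq libraries it was 40040000 to 40380000. The libraries labelled primary hepatocytes did not carry the marker pattern of that cell type, with Alb at 106 to 121 FPKM and Spp1, a biliary gene, at 3090 to 3203 FPKM, and they differed little from the Hep-Orgs. FPKM, fragments per kilobase of transcript scaled to the mapped fragments of the library, is a level per length, and it was the unit of all 3 tables. Each table was normalized on its own.

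Kupffer cells settle in the liver before birth and renew themselves there, and they take up bacteria, dying cells and old red cells from the blood. They depend on the growth factor receptor encoded by Csf1r, and in mice they carry the lectin encoded by Clec4f and the phosphatidylserine receptor encoded by Timd4, which recently recruited monocyte-derived macrophages lack. Lyz2, Cd68 and Adgre1 are shared by macrophages of many tissues, and the products of C1qa, C1qb and C1qc form the recognition part of the first component of complement.

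All 10 members were highest in the grape-like library, followed by the intermediate and then the round-like library, and in all 10 the lowest Smart-Seq library lay above the highest of the 21 bulk libraries. This ordering against the bulk libraries was found in 18% of the 12767 genes listed once in each of the 3 tables and reaching 1 FPKM in 1 or more libraries. The summed FPKM of the members was 9675 in the grape-like library, 2859 in the intermediate and 1553 in the round-like library, against 7.34 to 9.86 in the 12 libraries of the hepatocyte table and 10.1 to 77.3 in the 9 Cho-Orgs libraries. In the grape-like library the members made up 2.41% of the summed FPKM of all genes. In the round-like library they made up 0.380%.

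**Figure D1:**
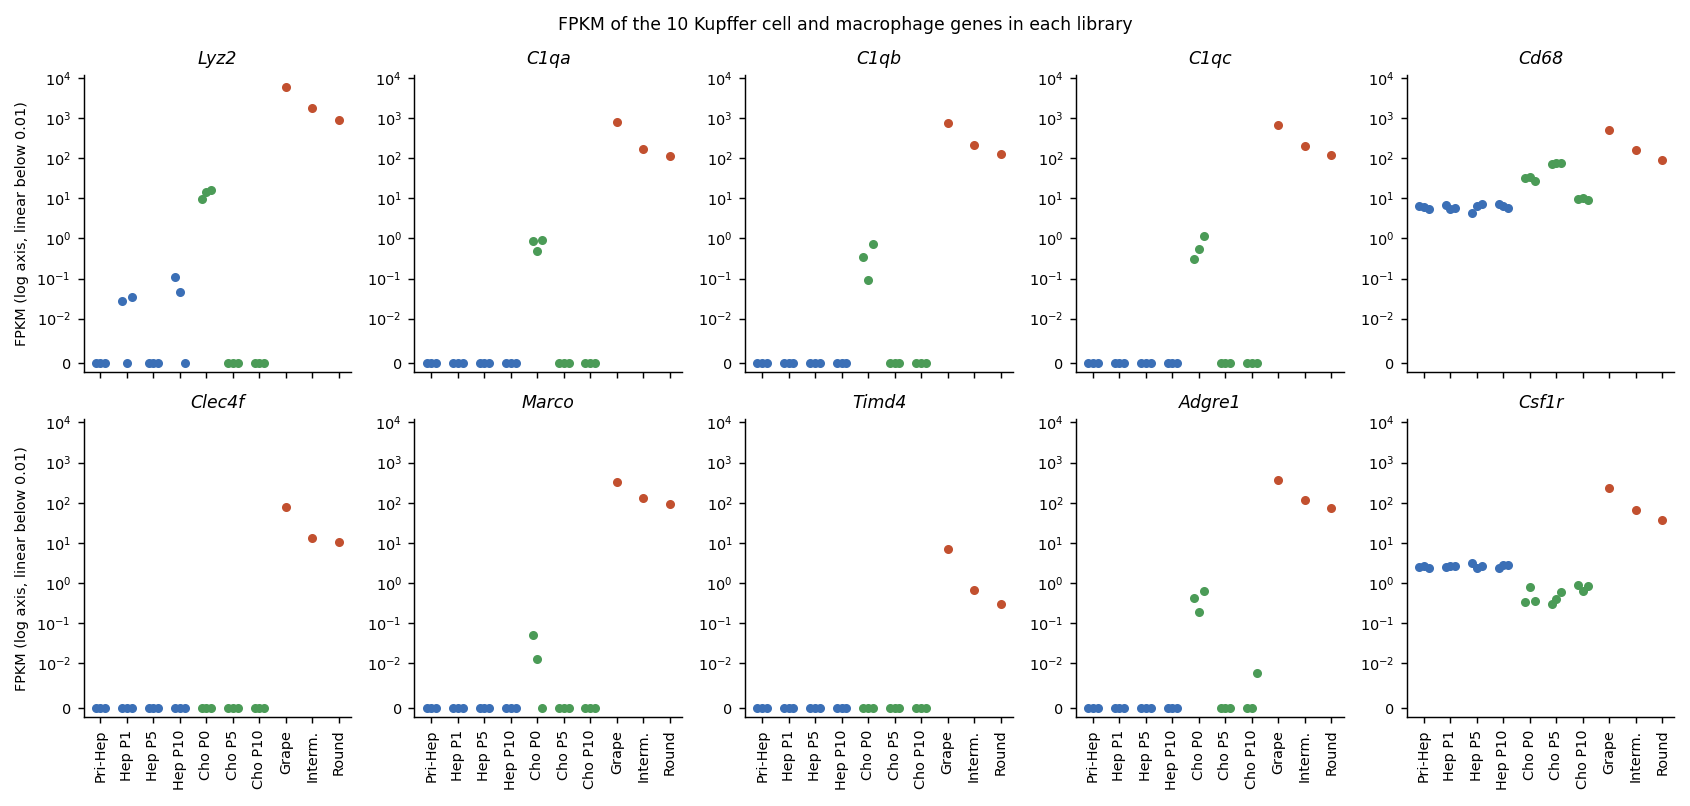
FPKM of each of the 10 members in each of the 24 libraries, on a log axis that is linear below 0.01; points are single libraries, blue for the hepatocyte table, green for Cho-Orgs and red for the Smart-Seq libraries. The red points lie above all the blue and green points in each panel, most narrowly for Cd68, and Clec4f and Timd4 lie at 0 in all 21 bulk libraries.

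Lyz2, which encodes the lysozyme of macrophages and neutrophils, was the most abundant member. It reached 5942 FPKM in grape-like Hep-Orgs, where it ranked 2 among all genes, and it stood at 1792 FPKM in intermediate and 887 FPKM in round-like Hep-Orgs. The 3 values lie apart, and the grape-like value was 6.70 times the round-like value with a 95% counting interval of 6.63 to 6.76. In the hepatocyte table Lyz2 was at 0 in 8 of 12 libraries and reached at most 0.108 FPKM, which corresponds to 2 fragments. Values at or under 3 fragments were treated as the floor of a library. In Cho-Orgs at P0, Lyz2 stood at 9.63, 14.1 and 15.8 FPKM.

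The neighbouring Lyz1, the lysozyme of intestinal Paneth cells, is a near copy of Lyz2 and was given beside it because fragments from one gene can be counted to the other. Both lie on the minus strand of chromosome 10 in GRCm38, Lyz2 at chr10:117277331-117282321 and Lyz1 at chr10:117287797-117292868. Their coding sequences of 447 bases differed at 22 positions, which is 95.1% identity, and the longest run without a difference was 118 bases. Of the 1267 stretches of 50 bases in the Lyz2 transcript, 15.4% also occurred in the Lyz1 transcript. The stretch of the coding sequence with the most differences is shown from base 43 to base 132, with the 13 differing bases in capitals.
Lyz2: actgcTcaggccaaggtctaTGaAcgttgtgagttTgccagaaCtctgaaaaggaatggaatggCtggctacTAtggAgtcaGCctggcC
Lyz1: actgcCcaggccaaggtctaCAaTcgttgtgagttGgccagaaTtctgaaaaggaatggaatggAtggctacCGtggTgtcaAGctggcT
Lyz1 was 11.5 FPKM in grape-like, 1.47 FPKM in intermediate and 5.04 FPKM in round-like Hep-Orgs. The order of Lyz1 thus differed from that of Lyz2, with the intermediate library lowest. In Cho-Orgs at P0, Lyz1 stood at 1.94, 33.7 and 2.00 FPKM, so that the second library was far above the other two, while its Lyz2 lay between theirs.

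The 3 chains of C1q lie side by side on the minus strand of chromosome 4, C1qb at chr4:136880129-136886187, C1qc at chr4:136889804-136893065 and C1qa at chr4:136895917-136898803. In the grape-like library C1qa reached 771 FPKM, C1qb 758 FPKM and C1qc 678 FPKM. The values in the intermediate library were 172, 209 and 195 FPKM in the same order, and in the round-like library they were 112, 125 and 118 FPKM. Per length the chains were close to each other in every Smart-Seq library, with the highest at 1.14, 1.21 and 1.11 times the lowest from grape-like to round-like. All 3 chains were at 0 in all 12 libraries of the hepatocyte table.

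The Adgre1 product is the surface antigen most used to identify mouse macrophages. Adgre1 (chr17:57358686-57483529, plus strand) was 369 FPKM in grape-like, 121 FPKM in intermediate and 75.7 FPKM in round-like Hep-Orgs, and was at 0 in the hepatocyte table. Marco (chr1:120474538-120505024, minus strand), a scavenger receptor for bacteria, was 331, 130 and 93.1 FPKM in the same order. Both genes fell less steeply from the grape-like to the round-like library than the other members, with a ratio of 4.87 for Adgre1 and 3.55 for Marco.

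Clec4f (chr6:83644542-83656187, minus strand) and Timd4 (chr11:46810800-46844332, plus strand) are the members most restricted to resident Kupffer cells. Clec4f was 79.3 FPKM in grape-like, 13.4 FPKM in intermediate and 10.3 FPKM in round-like Hep-Orgs. Timd4 was 6.99, 0.683 and 0.304 FPKM in that order, from about 608, 60.0 and 26.7 fragments. Both were detected in all 3 Smart-Seq libraries, and both were at 0 in all 21 bulk libraries. Timd4 had the steepest fall of the members, with a grape-like value 23.0 times the round-like value and a 95% counting interval of 15.6 to 33.8, and Clec4f followed with 7.70 times (7.21 to 8.22).

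Csf1r encodes the receptor through which macrophages receive their survival signal, and Cd68 encodes a glycoprotein of lysosomes and endosomes. Csf1r (chromosome 18, plus strand) was 228, 64.7 and 38.4 FPKM in the same order of shapes. Cd68 (chr11:69664213-69666153, minus strand) was 512, 162 and 91.8 FPKM. These were the only 2 members above 0 in all 21 bulk libraries.

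Cd68 came nearest to its bulk level, since its round-like value was 1.19 times the highest bulk value of 76.9 FPKM, found in Cho-Orgs at P5. For Csf1r the lowest Smart-Seq value was 12.4 times the highest bulk value, for Lyz2 56.3 times, and for C1qa, C1qb, C1qc and Adgre1 it was 104 to 168 times. For Marco it was 1787 times, where the highest bulk value of 0.0521 FPKM rests on about 4 fragments.

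From round-like to grape-like Hep-Orgs all 10 members differed by at least 2-fold on the scale of log2(FPKM + 1), against 12.9% of 12595 genes that were higher by that much in the grape-like library. The median log2 ratio of the members was 2.57, with a range of 1.82 for Marco to 2.83 for Clec4f, beside a median of -0.13 over all these genes. Between the grape-like and intermediate libraries all 10 members also passed 2-fold, against 9.71% of genes, with a median of 1.80. From the round-like to the intermediate library the median was 0.69, and only Lyz2 passed 2-fold, at a log2 ratio of 1.01 with a counting interval of 1.00 to 1.03, against 3.85% of genes. With 1 library per shape, these ratios compare 3 libraries and not the shapes, and there is no replicate check. The intervals cover counting error only.

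**Figure D2:**
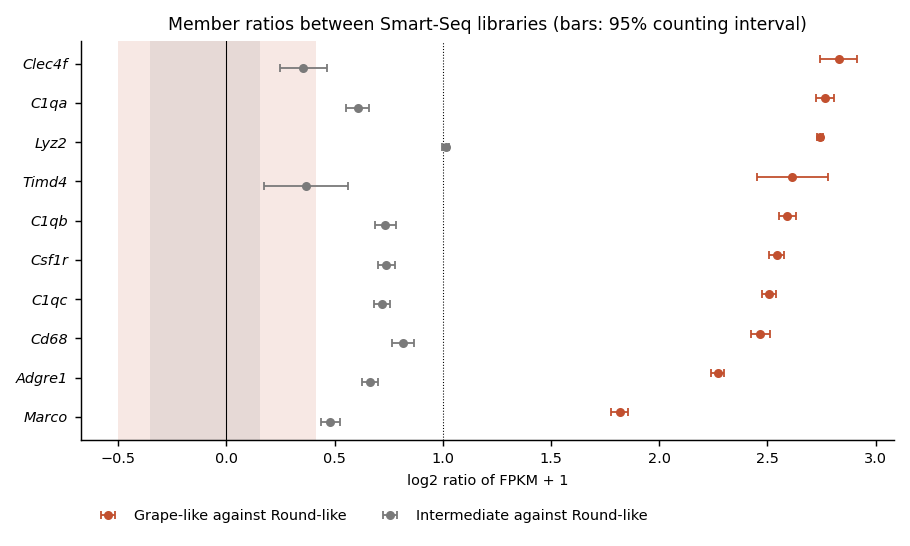
Log2 ratio of FPKM + 1 of each member between Smart-Seq libraries, grape-like against round-like in red and intermediate against round-like in grey, with 95% counting intervals. The shaded bands span the middle 50% of all genes that reach 1 FPKM in 1 or more of the 3 libraries, in the same colours, and the dotted line marks 2-fold; the red points lie between 1.82 and 2.83 and the grey points between 0.36 and 1.01.

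Set against Adgre1 in the same library, the proportions of the members were similar but not equal in the 3 libraries. Lyz2 stood at 16.1 times Adgre1 in grape-like, 14.9 times in intermediate and 11.7 times in round-like Hep-Orgs. C1qb stood at 2.06, 1.73 and 1.65 times Adgre1, and Csf1r at 0.619, 0.537 and 0.507 times. Marco went the other way, with 0.896, 1.08 and 1.23 times Adgre1. Among the members, Timd4 and Clec4f had the widest spread of this ratio. Clec4f was 0.215 times Adgre1 in the grape-like library, 0.112 times in the intermediate and 0.136 times in the round-like library, and Timd4 was 0.0190, 0.00567 and 0.00402 times. The 95% counting intervals of the grape-like and round-like libraries did not overlap for any of the 9 ratios. The other Kupffer cell genes set against Adgre1 had no common direction. Cd163, a haemoglobin scavenger receptor, stood at 0.427, 0.215 and 0.204 times Adgre1 and Cd5l at 1.88, 1.55 and 1.70 times, while Spic, a transcription factor of red pulp macrophages and Kupffer cells, went the other way with 0.198, 0.210 and 0.232 times.

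**Figure D3:**
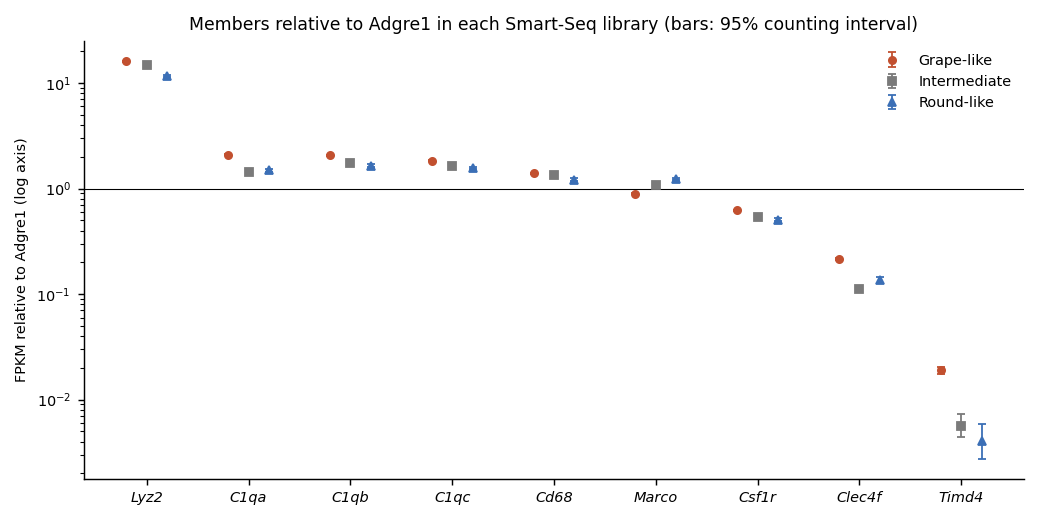
FPKM of 9 members relative to Adgre1 within each Smart-Seq library, on a log axis; circles are the grape-like, squares the intermediate and triangles the round-like library, and bars are 95% counting intervals. Lyz2 lies above 10 times Adgre1 in all 3 libraries, Marco is the one member whose ratio is lowest in the grape-like library, and Timd4 spans the widest range, from 0.0190 to 0.00402.

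Other genes of liver cell types moved together with the members in these 3 libraries. Of 10 other Kupffer cell genes, 9 were higher by at least 2-fold in the grape-like than in the round-like library, with a median log2 ratio of 2.43. Over 12595 genes, 12.9% were higher by that much. Cd5l, which encodes a macrophage protein that inhibits cell death, was 695, 187 and 128 FPKM from grape-like over intermediate to round-like, and Vsig4, a complement receptor, was 555, 105 and 68.4 FPKM. Vsig4 was at 0 in all 21 bulk libraries. The exception was Cd207, at 0.196, 0.0648 and 0.146 FPKM.

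Of 15 leukocyte and pan-myeloid genes, 14 were higher by at least 2-fold in the grape-like than in the round-like library, beside 12.9% of 12595 genes. Ctss, a lysosomal protease of antigen-presenting cells, was 429, 102 and 68.5 FPKM, and Laptm5, a lysosomal membrane protein of blood cells, was 323 FPKM in grape-like and 51.7 FPKM in round-like Hep-Orgs. The gene outside this pattern was Cd14, a co-receptor for bacterial lipopolysaccharide, which was 232, 587 and 443 FPKM. Cd14 was also 476 to 520 FPKM in the 12 libraries of the hepatocyte table, in which Ptprc, the pan-leukocyte gene, did not exceed 0.00354 FPKM.

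Genes of monocytes and neutrophils were low, with a summed FPKM of 61.8, 36.7 and 17.7 from grape-like to round-like, within or below the 21.3 to 166 of the bulk libraries. Of 9 such genes listed in these libraries, 3 were higher by at least 2-fold in the grape-like than in the round-like library and 0 were lower. Over 12595 genes, 12.9% were higher by that much. Itgam, an integrin of myeloid cells, was among the 3, at 32.0 and 7.84 FPKM. Ccr2, the chemokine receptor of recruited monocytes, was 0.190, 0.0839 and 0 FPKM. Lymphocyte genes summed to 0.153, 0.890 and 0.229 FPKM.

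Markers of the other sinusoidal cells were higher in the grape-like library too. All 8 genes of liver sinusoidal endothelial cells passed 2-fold against the round-like library, beside 12.9% of 12595 genes. Their summed FPKM was 135, 54.7 and 24.3, against 0.115 to 1.70 in the bulk libraries. Stab2, a scavenger receptor of these cells, was 18.6, 6.80 and 2.85 FPKM. Of 8 stellate cell genes, 7 passed 2-fold, beside the same share of all genes, and the summed FPKM of the list was 1362, 351 and 303. Dcn, a matrix proteoglycan, was 658, 157 and 102 FPKM. Hepatocyte genes summed to 4763, 7242 and 1173 FPKM and were highest in the intermediate library, while cholangiocyte genes summed to 850, 3385 and 2796 FPKM and were lowest in the grape-like library. The part of these cell types in the members' values was not tested.

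**Figure D4:**
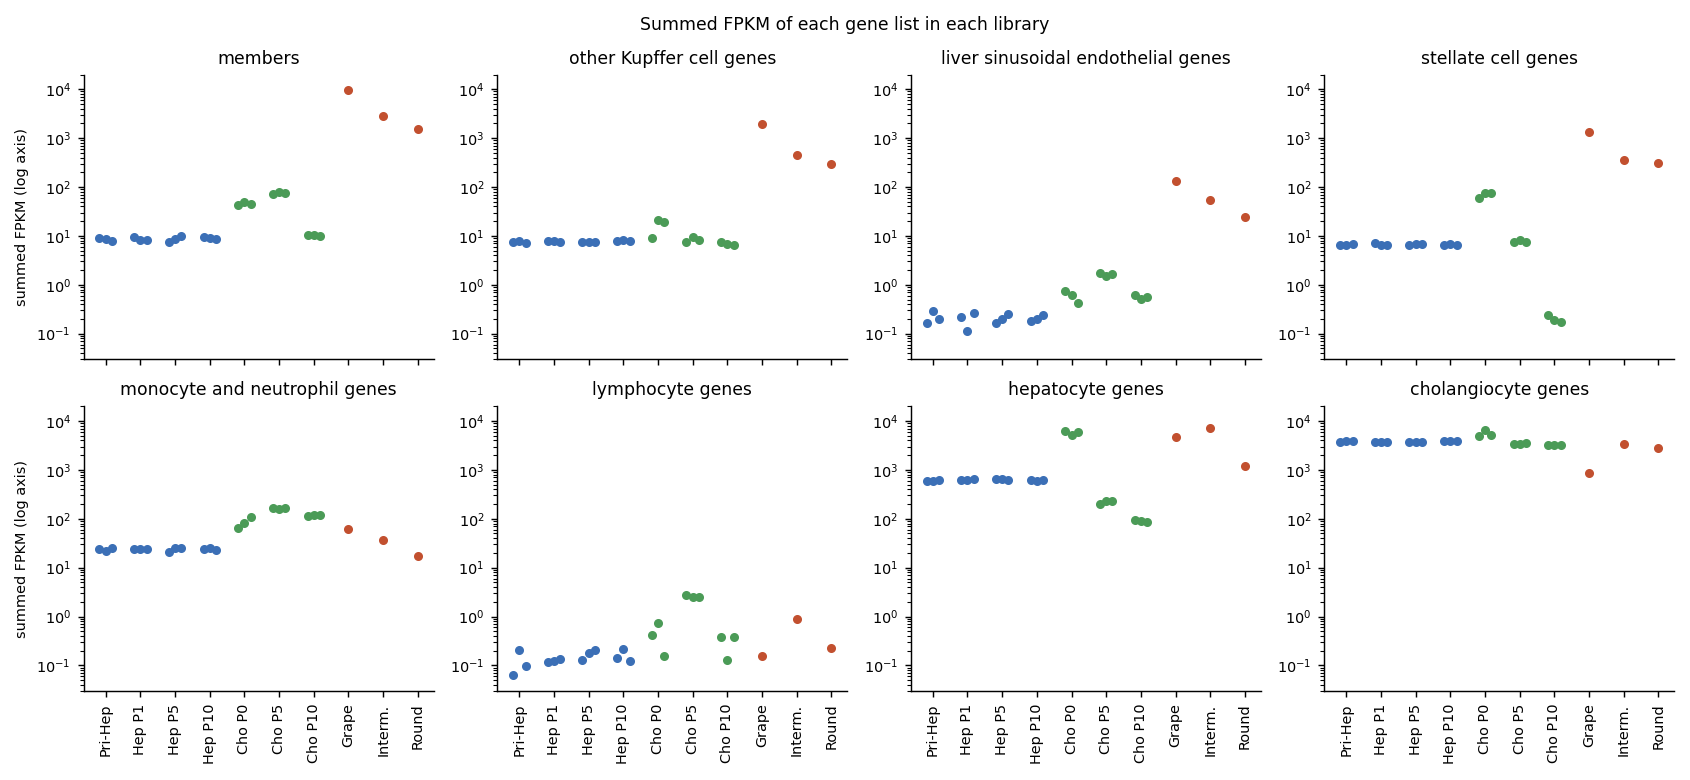
Summed FPKM of 8 gene lists in each of the 24 libraries, on a log axis, with the members in the first panel and colours by table as blue for hepatocyte, green for Cho-Orgs and red for Smart-Seq. The members, the other Kupffer cell genes and the endothelial and stellate cell genes lie higher in the 3 Smart-Seq libraries than in all bulk libraries, whereas the monocyte and neutrophil genes and the lymphocyte genes overlap with them.

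Of 12 genes of lipid-associated macrophages, a state described in fatty and injured liver, 9 were higher by at least 2-fold in the grape-like than in the round-like library. Over 12595 genes, 12.9% were higher by that much. Ctsd, a lysosomal protease, was 2777 FPKM in grape-like and 693 FPKM in round-like Hep-Orgs, and Apoe, which carries lipids and is also made by hepatocytes, was 2201 and 396 FPKM. Trem2, the lipid receptor that defines this state, was 74.4, 21.4 and 10.3 FPKM. Spp1 went the other way, with 796 and 2107 FPKM, and it is also a biliary gene. In 4 of the 12 genes, Trem2 among them, the lowest Smart-Seq library lay above every bulk library, beside 18% of 12767 genes. This did not hold for Ctsd, Apoe or Spp1. The list summed to 4496 to 9692 FPKM in the Smart-Seq libraries, which overlaps the 2015 to 7774 FPKM of Cho-Orgs.

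Macrophages are drawn and kept by growth factors and chemokines made by their neighbours. Csf1, a ligand of the Csf1r receptor, was 79.5, 35.7 and 31.6 FPKM from grape-like to round-like, above its 1.99 to 7.80 FPKM in the bulk libraries. Il34, the other ligand, was 0.345, 2.00 and 1.31 FPKM, and was 1.79 to 15.8 FPKM in the bulk libraries. Ccl2, which attracts monocytes, was 493, 174 and 170 FPKM, and Ccl7, a related chemokine, was 262 FPKM in grape-like and 75.6 FPKM in round-like Hep-Orgs. Of the 8 genes in this list, 4 were higher and 2 were lower by at least 2-fold in the grape-like than in the round-like library. Over 12595 genes, 12.9% were higher by that much.

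The proteases that join C1q in the first component of complement were lower than the C1q chains. C1s1 was 63.6, 22.0 and 12.7 FPKM, and C1ra was 45.9, 23.2 and 15.8 FPKM in the same order. C3, the central complement protein made chiefly by hepatocytes, was 980 FPKM in grape-like and 921 FPKM in round-like Hep-Orgs. Serping1, the inhibitor of the C1 proteases, was 165 and 41.5 FPKM. The intermediate library is not between these 2 for the list as a whole. The 6 complement genes summed to 1320, 2564 and 1016 FPKM from grape-like over intermediate to round-like.

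In the hepatocyte table, the question was whether the members changed from primary hepatocytes through 10 passages of Hep-Orgs. Only Cd68 and Csf1r passed the filter of at least 1 FPKM in at least 3 libraries, and neither passed an adjusted p of 0.05 in any of the 4 comparisons by limma with Benjamini-Hochberg adjustment over 10986 genes. The members Clec4f, Marco, Timd4, Adgre1 and the 3 C1q chains were at 0 in all 12 libraries. A count of 0 allows up to 3 fragments. Over the other gene lists as well, no gene tested passed the threshold in any of these comparisons.

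Cd68 was 6.45, 5.96 and 5.49 FPKM in Pri-Hep, 6.89, 5.51 and 5.62 FPKM in Hep-Orgs at P1, 4.24, 6.35 and 7.20 FPKM at P5 and 7.14, 6.34 and 5.70 FPKM at P10. The groups overlap throughout. The log2 difference of Hep-Orgs at P10 from Pri-Hep was 0.08 with a standard error of 0.14, and the limma adjusted p was 0.943. Csf1r was 2.49, 2.59 and 2.35 FPKM in Pri-Hep and 2.39, 2.81 and 2.87 FPKM in Hep-Orgs at P10, with a log2 difference of 0.08, a standard error of 0.07 and a limma adjusted p of 0.867. By limma, 0 of the 2 members passed an adjusted threshold of 0.05 and 0 had an unadjusted p under it in any of the 4 comparisons, where the share of all genes called was 0.0091% for P1 and for P5 and 0% for P10 against Pri-Hep and for P10 against P1. With the replicate number, and so the mouse, as a block in limma, 0 genes were called in all 4 comparisons. For those last comparisons, 730 and 986 genes had an unadjusted p under 0.05, and limma-voom on recovered fragments called 0 and 18.

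The Csf1r values of the bulk libraries carry a limit. In GENCODE M21, 873 bases of the exons of Csf1r are shared with exons of Hmgxb3, a gene on the opposite strand, and the methods describe the bulk reads as keeping strand. Whether the counting then used strand is not stated in the sources used here. Hmgxb3 was 7.19 to 8.47 FPKM in the hepatocyte table, 7.96 to 13.2 FPKM in Cho-Orgs and 9.90 to 11.1 FPKM in the Smart-Seq libraries. Its level was thus above that of Csf1r in all bulk libraries and below it in all 3 Smart-Seq libraries.

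In the Cho-Orgs, the question was which members persisted from the first culture to later passages. Lyz2 was found at P0 and was at 0 later, and Cd68 rose and then fell. Lyz2 was 13.2 ± 3.17 FPKM (SD, n = 3) at P0 and at 0 in all 6 libraries at P5 and P10. Against the floor of 3 fragments in a library it was at least 218-fold lower at P5 and at least 216-fold lower at P10. Lyz2 passed the filter only through P0, the group in which it was high, so its test with the filter is not given.

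Cd68 was 31.8, 33.2 and 26.1 FPKM at P0, 71.8, 76.9 and 74.7 FPKM at P5, and 9.51, 9.88 and 9.20 FPKM at P10. The 3 passages do not overlap, with P5 highest and P10 lowest. The log2 difference was 1.27 from P0 to P5 (standard error 0.08, limma adjusted p 1.46e-06) and -2.84 from P5 to P10 (standard error 0.08, limma adjusted p 1.78e-08). The adjusted p of Cd68 between P0 and P10 was 1.20e-07 by limma, with a log2 difference of -1.57.

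With Lyz2 left aside, Cd68 was the 1 member tested, and it was called in 3 of 3 comparisons. The share of all 11593 genes called was 56.6%, 72.3% and 61.5% for P5 against P0, P10 against P0 and P10 against P5. Cd68 was among the 34% of genes higher at P5 than at P0, where 22.6% were lower, and among the 31.3% lower at P10 than at P0, where 41% were higher. From P5 to P10, 30.5% of genes were lower, Cd68 among them, and 31% were higher. With 1 member, this count is not set apart from these shares. Of all calls for P5 against P0, 3938 were higher and 2621 lower at P5, while with median-ratio scaling 3087 of 6536 were higher. For P10 against P0, 4750 of 8384 calls were higher at P10, and with median-ratio scaling 4102 of 8265 were higher.

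**Figure D5:**
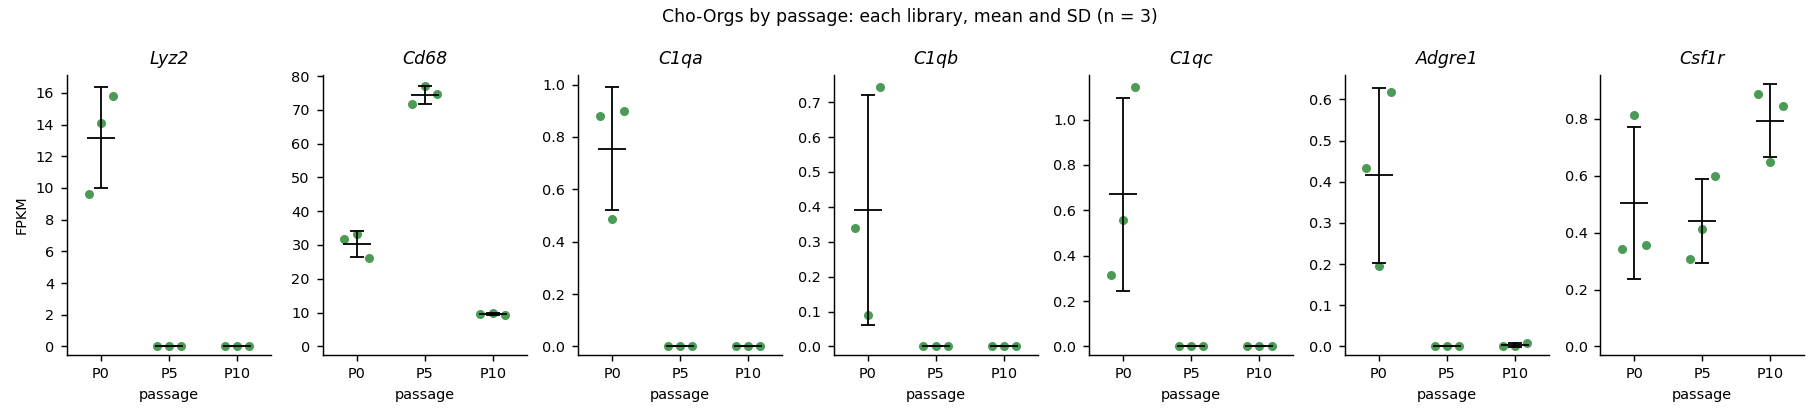
FPKM of 7 members in Cho-Orgs at P0, P5 and P10; green points are single libraries, and black bars give the mean and SD (n = 3). Lyz2 and the 3 C1q chains lie at 0 at P5 and P10, Cd68 is highest at P5, and Csf1r at P0 overlaps both later passages, whereas its 3 values at P5 lie below those at P10.

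The C1q chains and Adgre1 were under the filter but above 0 in all 3 libraries at P0. C1qa was 0.881, 0.486 and 0.899 FPKM at P0, C1qb was 0.341, 0.0907 and 0.742 FPKM, and C1qc was 0.313, 0.558 and 1.14 FPKM. The C1qb values rest on about 14.8, 3.94 and 31.5 fragments, so its second library lies near the floor of 3 fragments. All 3 chains were at 0 in the 6 later libraries. The means at P0 exceeded the floor of a later library at least 9.81-fold for C1qa, 5.32-fold for C1qb and 16.2-fold for C1qc. Adgre1 was 0.434, 0.194 and 0.619 FPKM at P0, and above 0 in 1 later library, at P10, from about 1 fragment.

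Without the filter, limma fitted every gene above 0 in 1 or more libraries. It called 6 of 8 members between P0 and P5, where 33.5% of 22670 genes were called. Apart from Cd68 these were Lyz2, C1qa, C1qb, C1qc and Adgre1. They were above 0 only at P0 or, for Adgre1, at P0 and in 1 library at P10. These members thus entered the fit through the group in which they were high, so their tests are not given and the count is no support for their fall. Between P0 and P10 limma called the same number of members, with the same limit, and 44.5% of genes. Between P5 and P10 it called 1 member, Cd68, and 34.6% of genes. Marco at P0 was 0.0521, 0.0130 and 0 FPKM, and Clec4f and Timd4 were at 0 in all 9 libraries. Csf1r was 0.505 ± 0.268 FPKM at P0, 0.440 ± 0.148 at P5 and 0.794 ± 0.128 at P10 (SD, n = 3), and it did not pass the filter.

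Other genes moved in the Cho-Orgs over the same passages. Of 15 leukocyte and pan-myeloid genes 4 were tested, and 3 of these fell from P0 to P5 while none rose. Over all genes tested, 22.6% were lower and 34% higher at P5. Mpeg1, a pore-forming protein of macrophages, was 10.5 ± 1.06 FPKM at P0 and 0.562 ± 0.138 at P5 (SD, n = 3), and it passed the filter only through P0. Lcp1, an actin-bundling protein of leukocytes, fell by 0.87 on the log2 scale. Its mean was 2.44 FPKM at P0, 0.858 at P5 and 0.149 at P10, so it reached the 1 FPKM of the filter on average only at P0. Cd14 was 228 ± 63.4 FPKM at P0, 123 ± 2.41 at P5 and 251 ± 2.86 at P10 (SD, n = 3), so that it fell and then rose again, by 1.02 on the log2 scale (limma adjusted p 0.000245), and between P0 and P10 the adjusted p was 0.316. Of the other Kupffer cell genes 2 of 10 were tested, and 1, the nuclear receptor gene Nr1h3, fell from P0 to P5 and rose from P5 to P10. The mean of Nr1h3 was 1.91 FPKM at P0, 0.278 at P5 and 0.892 at P10, so it too reached 1 FPKM on average only at P0. The other gene tested in this list was Slc40a1, an iron exporter, with a limma adjusted p of 0.0727 from P0 to P5, and 0.0464 with the replicate block. The median log2 difference of the 4 leukocyte genes from P0 to P5 was -0.86, beside 0.06 over all genes tested. It includes Mpeg1 and Lcp1, which carry the limit given above. Of 10 monocyte and neutrophil genes 4 were tested, and 2 rose from P0 to P5 while none fell. With 4 genes tested, this count is not set apart from the shares over all genes. Plac8, a gene of monocytes and granulocytes, was 67.7 ± 20.1 FPKM at P0, 128 ± 5.33 at P5 and 97.6 ± 5.24 at P10, with a log2 difference of 0.95 from P0 to P5 (limma adjusted p 0.000643), and from P5 to P10 the limma adjusted p was 0.0533, and 0.0264 with the replicate block. Ly6g, a surface antigen of neutrophils, was 2.84, 11.9 and 21.3 FPKM in the 3 libraries at P0, spread widely, and 31.2 ± 1.49 at P5 and 10.9 ± 0.458 at P10 (SD, n = 3).

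The complement genes fell together, with 6 of 6 lower at P5 than at P0, where 22.6% of all genes tested were lower, and a median log2 difference of -3.18. From P5 to P10 they split, with 3 higher (C1ra, C1s1 and C4b) and 3 lower (C2, C3 and Serping1), and all 6 remained lower at P10 than at P0. C4b fell from 44.1 ± 6.67 to 1.45 ± 0.194 FPKM and stood at 3.45 ± 0.437 FPKM at P10, and C1ra was 5.26 ± 0.535, 0.894 ± 0.0391 and 2.98 ± 0.179 FPKM at the 3 passages. From P0 to P5, C3 fell from 1221 ± 140 to 76.8 ± 11.2 FPKM (SD, n = 3). Hepatocyte genes summed to 5121 to 6115 FPKM at P0 and 200 to 233 FPKM at P5, so they moved the same way, and their part in these values was not tested. Of the growth factor and chemokine genes, 1 of 6 tested rose and 2 fell from P0 to P5, beside 34% higher and 22.6% lower over all genes tested. The one that rose was Il34, from 2.65 ± 1.22 to 12.6 ± 1.11 FPKM (log2 difference 1.94, limma adjusted p 1.74e-05). From P5 to P10, 4 of the 6 rose, where 31% of all genes tested were higher. Csf2, a growth factor of granulocytes and macrophages, was among the 4 and went from 0.553 ± 0.0757 to 4.12 ± 1.23 FPKM. Its mean at P0 was 0.157 FPKM, so Csf2 passed the filter only through P10, the group in which it was high.

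The control sequences upstream of 3 members are shown because these members stand for different patterns in the bulk libraries. Lyz2 was the most abundant member and C1qb a chain of C1q, both at 0 in most bulk libraries, and Cd68 was above 0 in all of them. Promoters were taken from RefSeq (GRCm38.p6) for 7 of the 10 members, and the 250 bases before each start were searched on both strands for GAGGAA and AGGAAGT, which are core and extended forms of the site of the macrophage factor PU.1 and overlap where the first runs on into GT, for TGCTGA, a half-site of MAF factors, and for TATAAA. Capitals mark the matches to these motifs, on either strand, and each sequence runs 5′ to 3′ along the minus strand of the genome. Of the Lyz2 region only the 201 bases outside the annotated gene are shown.
Lyz2, chr10:117282322-117282522: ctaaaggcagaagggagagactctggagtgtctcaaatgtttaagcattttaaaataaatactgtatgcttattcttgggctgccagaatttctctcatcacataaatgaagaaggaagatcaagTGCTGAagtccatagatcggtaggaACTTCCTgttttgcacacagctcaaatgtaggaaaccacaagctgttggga
C1qb, chr4:136886201-136886450: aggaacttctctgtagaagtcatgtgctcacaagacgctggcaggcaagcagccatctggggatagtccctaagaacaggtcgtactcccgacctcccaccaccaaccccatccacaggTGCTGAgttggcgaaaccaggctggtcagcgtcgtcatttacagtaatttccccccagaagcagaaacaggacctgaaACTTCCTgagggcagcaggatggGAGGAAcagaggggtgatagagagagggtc
Cd68, chr11:69666171-69666420: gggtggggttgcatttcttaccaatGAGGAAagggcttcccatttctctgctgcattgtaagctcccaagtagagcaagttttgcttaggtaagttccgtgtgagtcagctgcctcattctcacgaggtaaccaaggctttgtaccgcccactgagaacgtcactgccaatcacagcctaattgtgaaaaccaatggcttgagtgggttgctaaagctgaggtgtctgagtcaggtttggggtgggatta
Lyz2 held AGGAAGT on the opposite strand from 100 bases before the start and TGCTGA from 125 bases. C1qb held GAGGAA from 30 bases, AGGAAGT on the opposite strand from 53 bases and TGCTGA from 131 bases, and Cd68 held GAGGAA from 225 bases. GAGGAA occurred in 4 of 7 member promoters (C1qb, C1qc, Cd68 and Marco) and in 23.3% of all 32851 promoters. AGGAAGT occurred in 3 of 7 (Lyz2, C1qb and C1qc) against 7.69%, TGCTGA in 4 of 7 (Lyz2, C1qb, Clec4f and Timd4) against 16.1%, and TATAAA in 0 of 7 against 12.4%. A match is a description of letters and shows no binding.

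The genes whose levels ran most like those of Lyz2 and C1qb over all 24 libraries were found by Pearson's r of log2(FPKM + 1) among 11047 genes, as a description. For C1qb these were Adgre1 (r = 0.9999), and Ms4a6c, Ms4a6d, Rac2 and C1qc, all at r = 0.999. For Lyz2 they were Agtr1a (0.992), Lpl (0.992), Sparc (0.988), Vim (0.987) and Cxcl12 (0.987), while C1qa stood at 0.969 and Cd68 at 0.786. The points share the table and the library method, and the 3 Smart-Seq libraries lie far from the rest for these genes. Over the 9 Cho-Orgs libraries alone the gene most like Lyz2 was Rarres2 (0.999), followed by Tm4sf4, Glud1, Slc2a2 and Cp at 0.996 to 0.998. Lyz2 and Rarres2 were both at 0 in every library at P5 and P10, so r for Lyz2 mainly sets P0 apart from the later passages. The gene most like Cd68 was P4ha1 (0.995), followed by Ppic, Tkt, Fuca2 and Avpi1 at 0.991 to 0.994.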

How the data were processed

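The authors deposited 3 tables of FPKM, and per the labels their reads were placed on mm10 and counted with featureCounts 2.0.3, with edgeR 3.40.2 named as well. The aligner is not given in the sources used here. The methods describe poly(A) libraries for the 21 bulk samples and Smart-Seq for the 3 morphological samples, whereas the labels give the same poly(A) protocol for all. Fragments were recovered as FPKM times the listed length divided by 1 step per library in the hepatocyte table, where 100% of values were whole within 0.01. Depth in the other tables was estimated from steps of low genes with 1 transcript in GENCODE M21, and fragments there are approximate. Of 31053 identifiers in the hepatocyte table, 31011 were in GENCODE M21 and 29859 had the same coordinates.

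Values were compared as log2(FPKM + 1) with limma 3.58.1 in R 4.3.3, by lmFit and eBayes with trend on all groups of a table, and fold changes on that scale understate the change of low genes. Genes with at least 1 FPKM in at least 3 libraries were tested, and p-values were two-sided and adjusted by the Benjamini-Hochberg method over all genes tested, with a threshold of 0.05. The main fits were run on simulated data whose libraries varied little and carried no mouse effect. That run checks the code and not the spread in these data. The figure legends tie the replicate numbers to mice, so same-numbered libraries are paired, although their deviations from the group means had a median correlation of -0.0016 over 18 pairs in the hepatocyte table and -0.0063 over 9 in the cholangiocyte table. The main fits had no block, and a replicate block was the alternative. The 3 tables were not fitted together. Smart-Seq ratios carry 95% counting intervals without a test. Python 3.11.15 with numpy 2.4.6, pandas 2.3.3 and matplotlib 3.10.9 was used for the rest.

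The members and the gene lists were chosen with earlier results of these data known. Every member, Lyz1 and the 5 genes most like Lyz2, C1qb or Cd68 were named. Other genes were taken from those past the threshold with the largest change, at most 4 per list and comparison. They were also taken from the 3 genes of each list highest in a Smart-Seq library. Not every such gene was named, and Reln, Cd3e, Ptprb and S100a9 are among those left out. Cd207, Cd163, Spic, Slc40a1, Aif1, Trem2, Csf1, C1ra, Ccr2, Ptprc, Hmgxb3 and the markers Alb and Spp1 in the hepatocyte table were named after their values were seen. Other scalings, filters, pseudocounts, fits and left-out libraries were tried as alternatives.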

Additional observations from a re-analysis of the deposited data

How the results depend on the processing

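All 10 members stayed above the bulk libraries under TPM and median-ratio scaling, which is a description, as the contrast was known when they were chosen. Leaving out a Smart-Seq library can only keep or raise the lowest Smart-Seq value, so that setting could not lower this count and is no check. In grape-like against round-like and against intermediate, 10 passed 2-fold under pseudocount 0.1, TPM and median-ratio scaling. For intermediate against round-like the count was 1, and 0 after rescaling to TPM. In Cho-Orgs the calls of Cd68 remained under every alternative. The counts of members called were 6 without the filter and 1 with a mean FPKM of at least 5 for both P5 and P10 against P0, since more or fewer members were tested. Apart from Cd68, the members in these counts entered through P0, the group in which they were high. Leaving out each library in turn, the genes called in the hepatocyte table ranged from 0 to 2 for Hep-Orgs P1 and for P5 against Pri-Hep, where the main counts were 1 and 1. Without Pri-Hep replicate 1, replicate 2 or replicate 3 these counts were 0, 0 and 2 for P1 and 2, 0 and 1 for P5, and without any Hep-Orgs library they were 0. For P1 the count was 0 with eBayes without trend, with only the 2 groups, and with a replicate block, and 27 by limma-voom. For P5 it was 4 without the filter, 7 with a mean FPKM of at least 5, 2 as TPM, 0 with eBayes without trend, with only the 2 groups and with the replicate block, and 31 by limma-voom. For P10 against Pri-Hep it was 2 without the filter, and for P10 against P1 it was 18 by limma-voom. The cause was not tested. The uncalled log2 difference of Cd68 for P1 against Pri-Hep changed sign as TPM (-0.00048) and ranged from -0.083 to 0.056 over the left-out libraries, below 0 without Pri-Hep replicate 3 (-0.044) and without Hep-Orgs P1 replicate 1. For P5 it ranged from -0.16 to 0.16, above 0 without Pri-Hep replicate 1 (0.019) and without Hep-Orgs P5 replicate 1. The replicate block, which pairs libraries of 1 mouse, called 6381, 6939 and 8278 genes in the Cho-Orgs for P5 against P0, P10 against P5 and P10 against P0, and beyond the counts for P1 and P5 against Pri-Hep it moved no count of calls by over 1.5 times and changed no call of a member; among the other list genes, Slc40a1, Plac8 and Aif1 gained 1 call each. The log2 difference of Lyz2 between P5 and P0 was -3.80, and -7.02 with a pseudocount of 0.1, so that it rests on the pseudocount.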

Other observations

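Dendritic cell and erythroid genes were also read in the Smart-Seq libraries. Clec9a, a receptor of dendritic cells, was 7.80 FPKM in the grape-like and 1.58 FPKM in the round-like library. It was the only 1 of 5 dendritic cell genes higher by at least 2-fold, beside 12.9% of 12595 genes. Zbtb46 was 1.48 and 0.451 FPKM and Ccr7 0.177 and 0.113 FPKM. Alas2, the erythroid enzyme of haem synthesis, was 4.33 and 1.00 FPKM. It was the only 1 of 3 erythroid genes past 2-fold, and the globin genes did not follow, with Hba-a1 at 0.357 and 0 FPKM and Hbb-bs at 0 in both libraries. Itgam, an integrin of myeloid cells, was 32.0 and 7.84 FPKM.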
